A study of Homo sapiens with 27 samples.

Results

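After loss of CPSF1, 9 genes of the p53 pathway were followed: MDM2, MDM4, CDKN1A, BBC3, BAX, SESN1, GDF15, TP53INP1 and ZMAT3. The rule that chose them uses their names as p53 targets or inhibitors, and all 9 of 9 were present among the 20268 genes with counts. CPSF1 belongs to the CPSF complex, which recognizes poly(A) signals and starts cleavage of the transcript. The data were PAC-seq counts, in which each read ends at the junction of a transcript with its poly(A) tail, from 27 libraries of 3 human prostate cancer cell lines. The questions asked of the 9 genes were whether loss of CPSF1 was accompanied by higher levels of p53 targets, and whether 22Rv1 differed in this from LNCaP and its derivative LNCaP95.

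LNCaP responds to androgen, LNCaP95 was derived from LNCaP and does not need it, and 22Rv1 is likewise hormone-insensitive. In every line a lentivirus carried a control hairpin (CTRL sh) or 1 of the 2 hairpins that target CPSF1, named CPSF1 sh1 and CPSF1 sh2, and each hairpin had 3 libraries. All groups, the controls included, were infected and selected with puromycin before being seeded and grown for 72 h, so no uninfected or unselected cells were compared. LNCaP95 was kept in RPMI free of phenol red, which is not stated for the RPMI of the other two lines, so for LNCaP95 the line and its medium cannot be told apart. Each comparison set the 6 knockdown libraries of a line against its 3 control libraries, and the hairpins of that line share those controls.

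The p53 protein is a transcription factor that is kept low in unstressed cells because MDM2, itself a p53 target, marks it for degradation, while the related MDM4 blocks its activity. When DNA damage, disturbed ribosome assembly or other stress relieves that block, p53 raises a set of targets that arrest the cell cycle, promote apoptosis or adjust metabolism. A p53 response is therefore usually read from several targets together, since single targets such as GDF15 are also controlled by other pathways.

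PAC-seq counts depend on where a transcript ends, so the annotated ends of the 9 genes are shown first. The 50 bases before the annotated end held the canonical poly(A) signal AATAAA in 8 of 9 genes, searched on the strand of the gene, against 59.4% of 19524 genes, and AATAAA or its variant ATTAAA in 72.9% of those genes. The 30-base windows below are from hg19, are written 5′ to 3′ on the strand of the gene, and have the signal in capitals.
MDM2 (chr12:69239180-69239209, plus strand): aacgaaaggcaaAATAAAaccgtaaagcaa
CDKN1A (chr6:36655074-36655103, plus strand): cagcaggtgctcAATAAAtgattcttagtg
BBC3 (chr19:47724086-47724115, minus strand): tgtttccttttcAATAAAatcagattggaa
BAX (chr19:49465022-49465051, plus strand): tcttgagggggtAATAAAcctccttcggga
SESN1 (chr6:109307650-109307679, minus strand): ctggtatttttaAATAAAgaagaatttttc
GDF15 (chr19:18499954-18499983, plus strand): tctggtgataaaAATAAAgctgtctgaact
ZMAT3 (chr3:178735024-178735053, minus strand): gtgttccagtttAATAAAacggtttctgag
The window of TP53INP1 also held AATAAA. In that of MDM4, neither hexamer was found, which says nothing of other windows.

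Each gene had reads counted in its 3′ UTR extended by 300 bases, in its introns, in its coding exons (CDS) and in the 10 kb beyond its end. The counted 3′ UTR of CDKN1A covered 1839 bases between 36653578 and 36655416 on chromosome 6, and that of MDM2 9459 bases between 69208440 and 69239514 on chromosome 12. For MDM2, MDM4, BAX and TP53INP1 the 3′ UTR region included pieces within the gene body, where the 3′ UTRs of shorter annotated transcripts lie. Levels are given as CPM, the reads in a region scaled to 1000000 reads of that table in that library, and fold changes come from a fit with an additional scaling factor per library, so they differ slightly from ratios of the CPM. A gene was called when the adjusted p of that fit was under 0.05.

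Libraries held 3452413 to 12425417 reads over the 4 regions. CPSF1 fell in its 3′ UTR by 1.19, 1.05 and 0.73 on the log2 scale in LNCaP, LNCaP95 and 22Rv1 (adjusted p = 8.3e-05, 0.0003 and 0.016). All 6 knockdown libraries lay below the 3 controls in each line. The estimated fall in these reads was smallest in 22Rv1, which does not measure the protein. All 8 prostate epithelial markers examined were detected, and 4 of 5 leukocyte and fibroblast markers with a row in the table averaged under 2 CPM. The fifth, the collagen gene COL1A1, had 4.64 to 43.2 CPM. The summed prostate markers were 5861 to 6051 CPM in LNCaP controls and 4450 to 4870 CPM after knockdown, 9480 to 10007 and 6433 to 7479 CPM in LNCaP95, and 3136 to 3289 and 3498 to 3933 CPM in 22Rv1, and the part of this shift in the results below was not tested. These are bulk samples, so fewer cells with a transcript and less of it per cell cannot be told apart.

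In LNCaP cells the 3′ UTR reads of CDKN1A, MDM2, SESN1 and BAX rose and those of GDF15 and MDM4 fell, which is 4 of 9 genes higher against 8.24% of all genes tested and 2 of 9 lower against 10.1%. The median log2 change of the 9 genes was 0.50 and that of all genes 0.02. In LNCaP95 cells 2 of 9 genes rose, MDM2 and BAX, against 15.2% of all genes, and 3 of 9 fell, GDF15, BBC3 and MDM4, against 15.2%. The median of the 9 genes there was 0.14, beside 0.01 for all genes. In 22Rv1 cells CDKN1A alone was called, 1 of 9 higher against 0.678% of all genes and 0 of 9 lower against 0.791%. All 9 estimates in 22Rv1 were above 0, beside 5608 of 11501 genes, with a median of 0.32 beside -0.01 for all genes. At an unadjusted p under 0.05 were 3 of 9, beside 1637 of 11501 genes. With CPSF1 sh1 alone 7 of 9 estimates were above 0 (median 0.115), and with CPSF1 sh2 alone 9 of 9 (median 0.46). For all genes these counts were 5467 and 5672 of 11501. CDKN1A was the gene called in both LNCaP and 22Rv1, and no gene was called in all 3 lines.

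**Figure D1:**
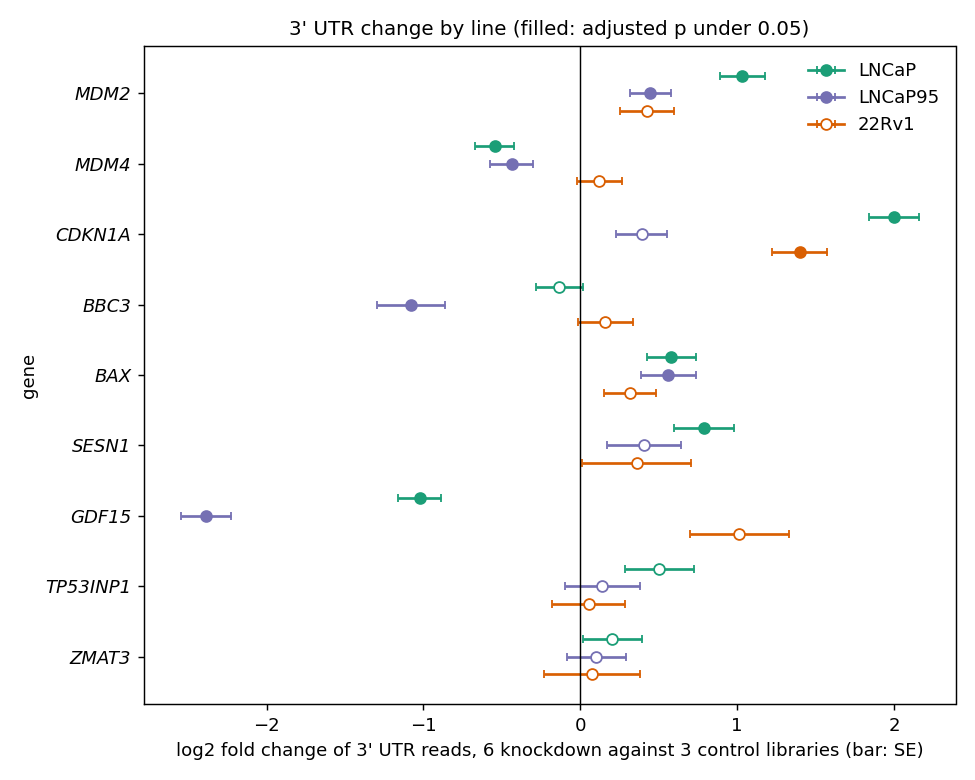
Log2 fold change of each of the 9 genes in the 3′ UTR, CPSF1 knockdown against control, in LNCaP, LNCaP95 and 22Rv1. Points are edgeR estimates, bars are their standard errors, and filled points passed the adjusted p of 0.05. CDKN1A lies at 2.00 in LNCaP and 1.40 in 22Rv1, and GDF15 at -2.39 in LNCaP95 and 1.01 in 22Rv1.

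CDKN1A encodes p21, the cyclin-dependent kinase inhibitor through which p53 arrests the cell cycle. In LNCaP its 3′ UTR had 47.8, 44.8 and 59.4 CPM in the controls, 217, 208 and 233 CPM with CPSF1 sh1 and 189, 216 and 246 CPM with CPSF1 sh2. The groups did not overlap, and the lowest knockdown library stood far above the highest control. The rise was 4.0-fold (log2 2.00 ± 0.16 SE, adjusted p = 1.6e-07). In 22Rv1 the controls had 23.8, 31.5 and 40.0 CPM, CPSF1 sh1 80.3, 72.5 and 82.2 CPM and CPSF1 sh2 111, 90.4 and 107 CPM. Again no library of one group reached the other, and the rise was 2.64-fold (log2 1.40 ± 0.17 SE, adjusted p = 0.00085). Both calls held when any 1 library of the line was left out.

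LNCaP95 differed from LNCaP for CDKN1A. Its controls had 80.0, 97.4 and 125 CPM, CPSF1 sh1 155, 112 and 156 CPM, and CPSF1 sh2 159, 171 and 125 CPM. The groups overlapped, because the highest control lay within the knockdown range, and the change did not pass the test (log2 0.39 ± 0.16 SE, adjusted p = 0.074). It passed without CTRL sh replicate 3 (0.59, adjusted p = 0.025) and without CPSF1 sh1 replicate 2 (0.45, adjusted p = 0.032). The LNCaP95 change was smaller than the LNCaP change by 1.60 ± 0.23 SE on the log2 scale (adjusted p = 1.3e-05). In the controls the order ran the other way, with CDKN1A higher in LNCaP95 than in LNCaP by 0.77 ± 0.19 SE (adjusted p = 0.0011).

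**Figure D2:**
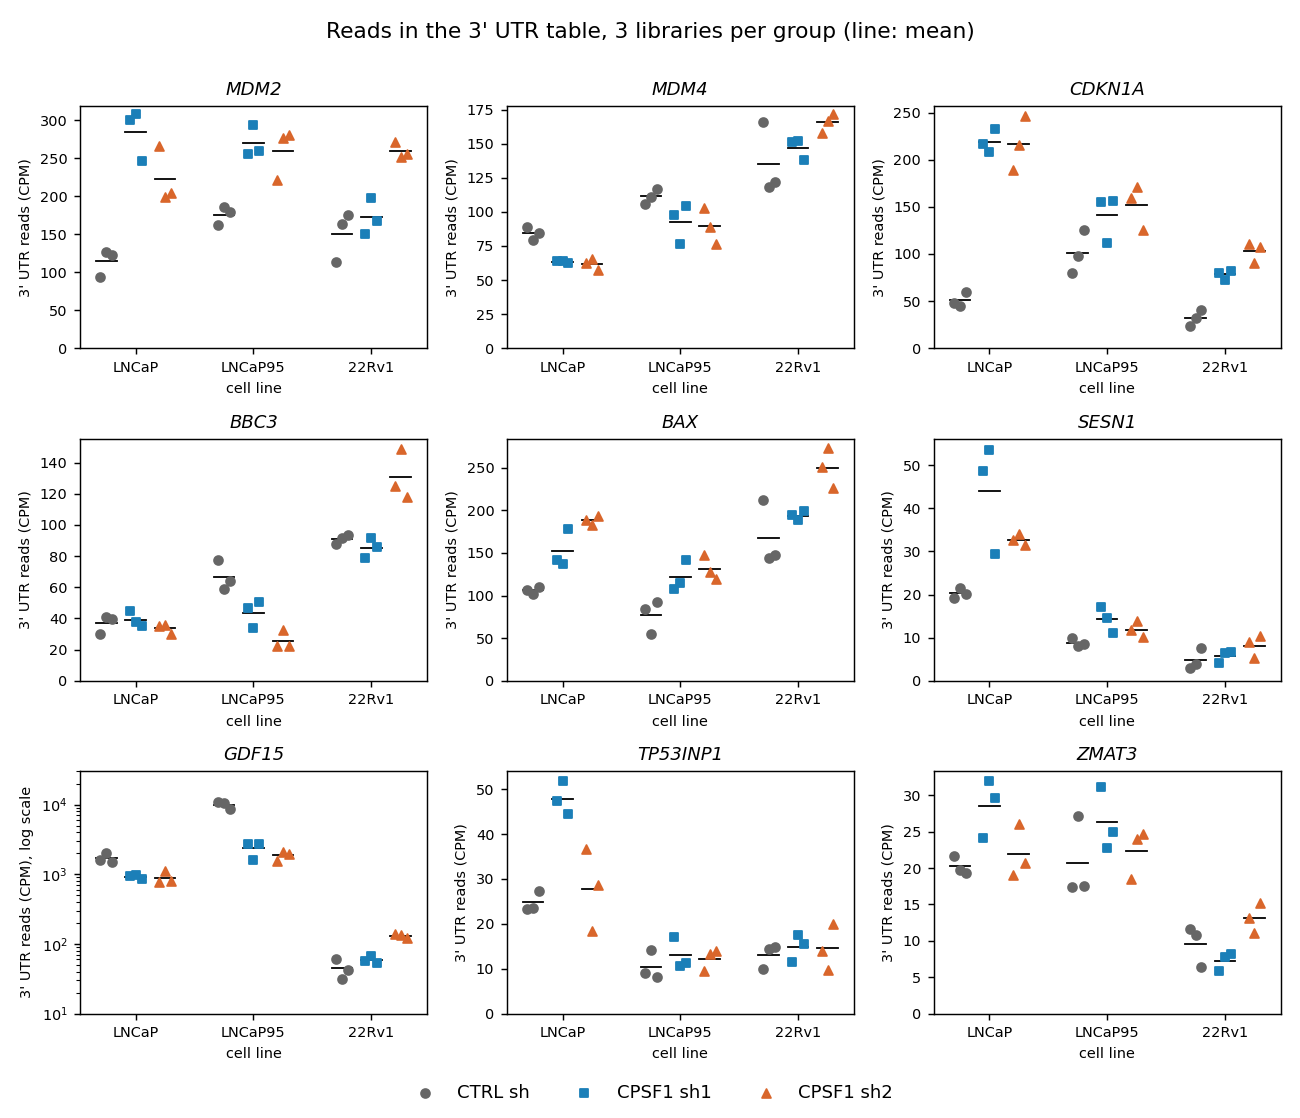
CPM in the 3′ UTR of the 9 genes, 1 panel per gene, with 1 point per library in 3 groups (CTRL sh, CPSF1 sh1 and CPSF1 sh2) for each line and bars at the group means. The GDF15 panel has a log axis and the others start at 0. CDKN1A in LNCaP separates from 44.8 to 59.4 CPM in the controls to 189 to 246 CPM after knockdown, while in LNCaP95 the groups overlap.

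MDM2 encodes the ubiquitin ligase that keeps p53 low and is induced by p53 in a feedback loop. In LNCaP the controls had 93.6, 127 and 122 CPM in its 3′ UTR, CPSF1 sh1 300, 308 and 246 CPM, and CPSF1 sh2 266, 199 and 204 CPM. All 6 knockdown libraries lay above all controls, and the rise was 2.05-fold (log2 1.03 ± 0.14 SE, adjusted p = 7.1e-05), with the call kept whichever library was left out. In LNCaP95 the controls had 162, 186 and 179 CPM and the knockdown libraries 221 to 294 CPM (median 268). The groups did not overlap there either, but the rise was smaller (0.45 ± 0.13 SE, adjusted p = 0.015), and without CTRL sh replicate 1 it was 0.41 with an adjusted p of 0.082. In 22Rv1 the controls had 114, 163 and 175 CPM, CPSF1 sh1 150, 198 and 168 CPM, and CPSF1 sh2 271, 251 and 255 CPM. CPSF1 sh2 stood above every control and CPSF1 sh1 was mixed with them, and the change over both hairpins did not pass (0.42 ± 0.17 SE, adjusted p = 0.26).

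MDM4, the other inhibitor of p53, moved opposite to MDM2 in LNCaP and LNCaP95. The LNCaP controls had 88.6, 79.7 and 84.8 CPM and the knockdown libraries 57.2 to 65.1 CPM (median 63.3), with no overlap (-0.55 ± 0.12 SE, adjusted p = 0.0049). In LNCaP95 the controls had 106, 111 and 117 CPM and the knockdown libraries 76.3 to 104 CPM (median 93.3). All 6 were below the controls (-0.44 ± 0.14 SE, adjusted p = 0.022), but the call was lost without CTRL sh replicate 1 (-0.46, adjusted p = 0.060), CTRL sh replicate 3 (-0.39, adjusted p = 0.094) or CPSF1 sh2 replicate 3 (-0.39, adjusted p = 0.057). In 22Rv1 the groups overlapped, with 166, 118 and 122 CPM in the controls and 138 to 172 CPM after knockdown (0.12 ± 0.14 SE, adjusted p = 0.77).

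BAX and BBC3 (PUMA) encode apoptotic members of the BCL2 family, BAX forming pores in the mitochondrial outer membrane and PUMA neutralizing its inhibitors. BAX had 106, 102 and 110 CPM in LNCaP controls and 137 to 193 CPM after knockdown, without overlap (0.58 ± 0.15 SE, adjusted p = 0.013). In LNCaP95 its controls had 83.9, 54.7 and 92.8 CPM and the knockdown libraries 108 to 147 CPM, also without overlap (0.56 ± 0.18 SE, adjusted p = 0.022). Neither BAX call held in every fit that left out 1 library. In LNCaP the call was lost without CTRL sh replicate 2 (0.53, adjusted p = 0.071) or 3 (0.60, adjusted p = 0.051), and in LNCaP95 without CTRL sh replicate 2 (0.34, adjusted p = 0.14). Over all reads of the gene, BAX was called in LNCaP (0.66, adjusted p = 0.00071), in all 9 fits that left out 1 library. Over all reads it was not called in LNCaP95 (0.40, adjusted p = 0.051). In 22Rv1 BAX had 212, 144 and 147 CPM in the controls and 188 to 273 CPM after knockdown, so CTRL sh replicate 1 lay within the knockdown range. The change there was 0.32 ± 0.16 SE (adjusted p = 0.41), and without that control it was 0.57 with an adjusted p of 0.035.

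BBC3 was called in LNCaP95, where it fell. Its controls there had 77.6, 58.9 and 63.8 CPM, CPSF1 sh1 46.8, 33.8 and 50.6 CPM, and CPSF1 sh2 22.3, 32.3 and 22.6 CPM. Every knockdown library was below every control (-1.08 ± 0.22 SE, adjusted p = 0.0011), and the call was kept whichever library was left out. In LNCaP the values overlapped, 30.2, 40.8 and 39.5 CPM in the controls and 30.1 to 45.0 CPM after knockdown (-0.13 ± 0.15 SE, adjusted p = 0.58). In 22Rv1 the controls had 87.5, 91.6 and 93.7 CPM, CPSF1 sh1 78.5, 91.3 and 85.7 CPM and CPSF1 sh2 125, 149 and 118 CPM, so that only the CPSF1 sh2 libraries stood above the controls (0.16 ± 0.17 SE over both, adjusted p = 0.74). BAX and BBC3 thus had estimates of opposite sign in LNCaP95, both past the test.

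GDF15, a secreted stress cytokine of the TGF-β superfamily, had the widest span of levels among lines. Its controls had 1607, 2005 and 1519 CPM in LNCaP, 10837, 10543 and 8507 CPM in LNCaP95, and 60.8, 31.5 and 42.4 CPM in 22Rv1. In LNCaP the knockdown libraries had 762 to 1129 CPM, below all controls (-1.02 ± 0.14 SE, adjusted p = 4.9e-05). The fall was larger in LNCaP95, to 1570, 1603, 1939, 2104, 2718 and 2733 CPM (-2.39 ± 0.16 SE, adjusted p = 8.7e-09). Both falls were called whichever library was left out. In 22Rv1 CPSF1 sh1 had 57.3, 67.4 and 53.5 CPM and CPSF1 sh2 140, 132 and 120 CPM, and the change over both did not pass (1.01 ± 0.31 SE, adjusted p = 0.13). There CTRL sh replicate 1 lay within the CPSF1 sh1 values, and without it the change was 1.30 with an adjusted p of 0.028.

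SESN1, a stress-induced regulator that restrains mTORC1, had 19.1, 21.6 and 20.2 CPM in LNCaP controls, 48.7, 53.6 and 29.4 CPM with CPSF1 sh1 and 32.6, 34.0 and 31.6 CPM with CPSF1 sh2. The groups did not overlap and the gene rose (0.79 ± 0.19 SE, adjusted p = 0.0072). In LNCaP95 it had 9.98, 7.97 and 8.64 CPM in the controls and 10.2 to 17.2 CPM after knockdown, a separation that did not pass the test (0.41 ± 0.23 SE, adjusted p = 0.20). In 22Rv1 it had 2.90 to 7.59 CPM in the controls and 4.16 to 10.3 CPM after knockdown, with overlap (0.36 ± 0.35 SE, adjusted p = 0.70). TP53INP1, a nuclear protein that promotes p53 activity, and ZMAT3, an RNA-binding zinc finger protein, were not called in the 3′ UTR of any line. TP53INP1 in LNCaP came closest (0.50 ± 0.22 SE, adjusted p = 0.12), with 23.4, 23.6 and 27.4 CPM in the controls, 47.3, 51.8 and 44.4 CPM with CPSF1 sh1 and 36.6, 18.3 and 28.6 CPM with CPSF1 sh2, where CPSF1 sh2 replicate 2 lay below the controls. Without that library the TP53INP1 change was 0.61 with an adjusted p of 0.015. The ZMAT3 estimates were 0.20, 0.10 and 0.07 in LNCaP, LNCaP95 and 22Rv1.

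Each hairpin was also set alone against the 3 controls of its line. In LNCaP, CPSF1 sh1 called 6 of 9 genes (16.1% of all genes tested) and CPSF1 sh2 5 of 9 (12.5%). CDKN1A rose with both, by 1.97 ± 0.17 and 2.03 ± 0.17 on the log2 scale, and so did MDM2, by 1.16 ± 0.14 and 0.89 ± 0.14, while GDF15 and MDM4 fell with both. SESN1 and TP53INP1 were called with CPSF1 sh1 (0.94 ± 0.20 and 0.80 ± 0.19) and BAX with CPSF1 sh2 (0.76 ± 0.15). In LNCaP95, CPSF1 sh1 called 3 of 9 genes (20.8%) and CPSF1 sh2 4 of 9 (26.5%), with GDF15 and BBC3 lower with both. In 22Rv1, CPSF1 sh1 called 1 of 9 (0.443%), CDKN1A at 1.23 ± 0.17, and CPSF1 sh2 called 3 of 9 (3.48%), which were CDKN1A (1.54 ± 0.17), GDF15 (1.45 ± 0.21) and MDM2 (0.66 ± 0.14). The direct test of CPSF1 sh2 against CPSF1 sh1 called none of the 9 genes in the 3′ UTR of any line, in a test that called 0.0363%, 0.00% and 0.0522% of all genes in LNCaP, LNCaP95 and 22Rv1. A count of 0 of 9 is near that background. At an unadjusted p under 0.05 were 2, 1 and 4 of 9, beside 880 of 11021, 746 of 11277 and 1299 of 11501 genes. For GDF15 in 22Rv1 the hairpin difference was 1.07 ± 0.20 SE in the 3′ UTR (adjusted p = 0.11) and 1.12 ± 0.15 SE over all reads of the gene (adjusted p = 0.0045). Over all reads in 22Rv1, 9 of 9 hairpin differences were above 0, beside 6743 of 13677 genes. At an unadjusted p under 0.05 were 7 of 9, beside 1609 of 13677. Over all reads there, CPSF1 sh1 alone called 1 of 9 higher and CPSF1 sh2 alone 5 of 9, beside 359 and 782 of 13677.

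**Figure D3:**
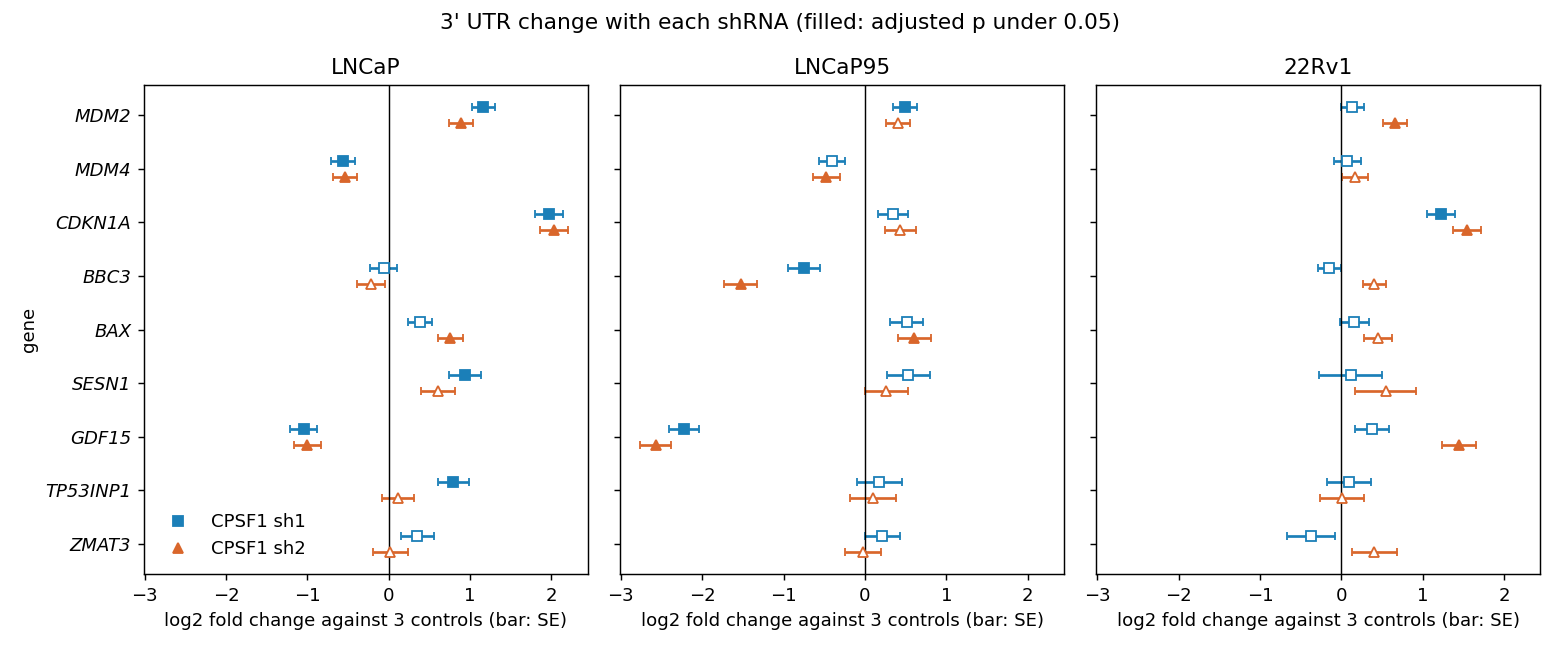
Log2 fold change in the 3′ UTR of each of the 9 genes with CPSF1 sh1 alone and CPSF1 sh2 alone against the same 3 controls, 1 panel per line. Bars are standard errors and filled points passed the adjusted p of 0.05. In LNCaP both hairpins lie near 2 for CDKN1A, and in 22Rv1 CPSF1 sh2 lies at 1.45 for GDF15.

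The changes were then compared between lines with a line-by-knockdown term over all 27 libraries. Against the mean change of LNCaP and LNCaP95, the 22Rv1 change in the 3′ UTR differed for 3 of 9 genes, against 7.51% of all genes. These were GDF15 (higher by 2.73 ± 0.32 SE, adjusted p = 1e-06), MDM4 (higher by 0.63 ± 0.16 SE, adjusted p = 0.014) and BBC3 (higher by 0.78 ± 0.24 SE, adjusted p = 0.043). None of the 3 had passed within 22Rv1 itself. For BBC3 the mean of the pair joined unlike changes, -0.13 in LNCaP and -1.08 in LNCaP95, beside 0.16 in 22Rv1. The difference for GDF15 was called whichever of the 27 libraries was left out, that for MDM4 in 25 of 27 such fits, and that for BBC3 in 11 of 27, where its value stayed between 0.67 and 0.85. For MDM4 the exceptions were 22Rv1 CTRL sh replicates 2 and 3, without which it was 0.51 and 0.54. For BBC3 they were 16 libraries from all 3 lines, among them all 3 controls and all 3 CPSF1 sh2 libraries of 22Rv1. The BBC3 call also ended with a replicate block (0.77, adjusted p = 0.082) and with library sizes summed over the 4 tables (0.73, adjusted p = 0.085).

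For CDKN1A the 22Rv1 change did not differ detectably from the mean of the pair (0.22 ± 0.21 SE, adjusted p = 0.59), a mean of 1 large and 1 small change. In contrasts of single lines that were added after the data were seen, the CDKN1A change in 22Rv1 exceeded that in LNCaP95 by 1.02 ± 0.23 SE (adjusted p = 0.0044) and differed from that in LNCaP by -0.58 ± 0.24 SE (adjusted p = 0.16). MDM2 did not pass against the pair (-0.30 ± 0.18 SE, adjusted p = 0.35). Within the pair, LNCaP95 differed from LNCaP for 3 of 9 genes, against 9.58% of all genes: CDKN1A as above, GDF15 by -1.35 ± 0.32 SE (adjusted p = 0.0063) and BBC3 by -0.93 ± 0.29 SE (adjusted p = 0.033). In the 3′ UTR, LNCaP and LNCaP95 thus differed from each other in as many of the 9 genes as 22Rv1 differed from their mean. Over all reads of a gene in the 4 regions, the LNCaP95 change was lower for 4 of 9, beside 1061 of 13892 genes. In the introns it was lower for 3 of 9, beside 428 of 12468, and beyond the gene end for 0 of 9, beside 148 of 14765. None of the 9 was higher in these, and the counts of 22Rv1 against the pair are given with those regions below.

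The levels before knockdown also differed between lines. In control libraries 7 of 9 genes differed between 22Rv1 and the pair, in a comparison that called 55.4% of all genes. BAX, BBC3 and MDM4 were higher in 22Rv1 by 0.87, 0.85 and 0.46 on the log2 scale, and GDF15, SESN1, ZMAT3 and CDKN1A differed by -6.56, -1.38, -1.18 and -1.16. MDM2 did not pass, at 0.07 ± 0.15 SE (adjusted p = 0.71). In LNCaP95 controls against LNCaP controls, a contrast added after the data were seen, 6 of 9 genes differed in a comparison that called 41.9% of all genes. GDF15 (2.33), CDKN1A (0.77) and BBC3 (0.65) were higher and TP53INP1 (-1.48), SESN1 (-1.40) and BAX (-0.67) were lower. GDF15, CDKN1A and BBC3, the genes whose change was lower in LNCaP95 than in LNCaP, were also the ones with the higher control level there, and these estimates share the control libraries.

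Counting all reads of a gene over the 4 regions gave 5 of 9 genes higher and 2 of 9 lower in LNCaP. In LNCaP95 1 of 9 was higher and 3 of 9 lower, and in 22Rv1 1 of 9 was higher. Of all genes, 27.5%, 34.3% and 7.57% were called in either direction in the same order. Higher were 1833 of 13105, 2380 of 13557 and 627 of 13677 genes, and lower were 1765, 2275 and 409. CDKN1A rose by 2.06 ± 0.13 in LNCaP and 1.31 ± 0.19 in 22Rv1 and was not called in LNCaP95 (0.19 ± 0.15 SE, adjusted p = 0.34). TP53INP1 joined the genes that rose in LNCaP (0.58 ± 0.13 SE, adjusted p = 0.0035). MDM2 in LNCaP95 was not called over all reads (0.26 ± 0.13 SE, adjusted p = 0.13), whereas its 3′ UTR was. SESN1 in LNCaP95 was called over all reads (0.51 ± 0.18 SE, adjusted p = 0.031), though in only 5 of 9 fits that left out 1 library. The SESN1 call was lost without CTRL sh replicate 2 (0.34), CTRL sh replicate 3 (0.57), CPSF1 sh1 replicate 2 (0.46) or CPSF1 sh2 replicate 1 (0.47). That of MDM4 in LNCaP95 over all reads (-0.37 ± 0.12 SE, adjusted p = 0.023) was lost without CTRL sh replicate 3 (-0.32), CPSF1 sh2 replicate 2 (-0.35) or CPSF1 sh2 replicate 3 (-0.34). Against the pair, the 22Rv1 change over all reads differed for 2 of 9 genes (11.8% of all genes), GDF15 by 2.63 ± 0.32 SE and MDM4 by 0.54 ± 0.13 SE.

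Reads in the 10 kb beyond the gene end are those that ended past the annotated end of the gene on its strand. Transcripts that ran past the poly(A) site can give them, and so can unannotated ends, neighbouring genes and priming within A-rich sequence. Here 3 of 9 genes were higher in LNCaP against 9.52% of all genes, 4 of 8 tested in LNCaP95 against 17.6%, and 5 of 9 in 22Rv1 against 7.26%. None was lower, where 5.20%, 10.1% and 2.73% of all genes were. In 22Rv1, CDKN1A and BAX had 0 control reads and passed the filter on low counts through the knockdown libraries alone, so that they could be called only as higher, and the 22Rv1 count is a description. Among the 5 members above 2 CPM in every library of 22Rv1, 2 were called, MDM4 and SESN1. This table was the shallowest, with 170330 to 389029 reads in 22Rv1 controls and 354733 to 728430 in 22Rv1 knockdown libraries, and the part of this depth gap in the results was not tested. It took 4.46% to 4.93% of the reads in 22Rv1 controls and 5.51% to 6.30% after knockdown. Scaling was within the table, so a rise shared by all 10 kb regions is not in these values.

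MDM2 and SESN1 were higher beyond the gene end in all 3 lines. The MDM2 10 kb region had 12, 12 and 11 reads in LNCaP controls and 27 to 82 reads after knockdown (1.82 ± 0.33 SE, adjusted p = 5.3e-06). In LNCaP95 it had 8, 15 and 23 reads in the controls and 34 to 86 after knockdown (1.2 ± 0.35 SE, adjusted p = 0.0053), a call lost without CTRL sh replicate 1 (0.87, adjusted p = 0.084). In 22Rv1 the controls had 0, 0 and 3 reads, against 11, 22 and 25 with CPSF1 sh1 and 47, 42 and 56 with CPSF1 sh2. The pooled MDM2 ratio of knockdown to control per 10 kb read was 15.9, with a 95% exact interval of 5.37 to 77.8 that covers counting error only (edgeR adjusted p = 1.5e-05). The 3 control reads were all in CTRL sh replicate 3, without which the controls had 0 reads. On the opposite strand this region overlaps the carboxypeptidase gene CPM, and reads were counted on the strand of the gene.

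SESN1 had 9, 5 and 13 reads beyond its end in LNCaP controls and 27 to 82 after knockdown (1.91 ± 0.36 SE, adjusted p = 1.6e-05). In LNCaP95 it had 6, 7 and 5 reads in the controls and 44 to 79 after knockdown (2.37 ± 0.41 SE, adjusted p = 1.9e-06), and in 22Rv1 3, 7 and 10 reads and 27 to 91 (1.84 ± 0.38 SE, adjusted p = 0.00015). The groups did not overlap in CPM in any line. These reads made up 4.34% ± 1.81 of all SESN1 reads in LNCaP controls and 15.8% ± 6.19 after knockdown, 5.70% ± 2.83 and 36.3% ± 6.69 in LNCaP95, and 11.8% ± 2.06 and 37.5% ± 9.15 in 22Rv1 (SD, n = 3 and n = 6). The share in the introns moved the other way, from 45.8% to 30.7%, from 55.3% to 28.0% and from 60.9% to 39.0%. Shares of a gene have a fixed total, so a larger 10 kb share lowers the others. The SESN1 intron reads themselves were not called in LNCaP (0.32, adjusted p = 0.27), LNCaP95 (-0.42, adjusted p = 0.25) or 22Rv1 (-0.18, adjusted p = 0.74). Their ratio to 3′ UTR reads was not called either. A newer annotation of the same build extends SESN1 to position 109305512, inside its own 10 kb region, so part of these reads may come from an end that the counting did not assign to its 3′ UTR.

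**Figure D4:**
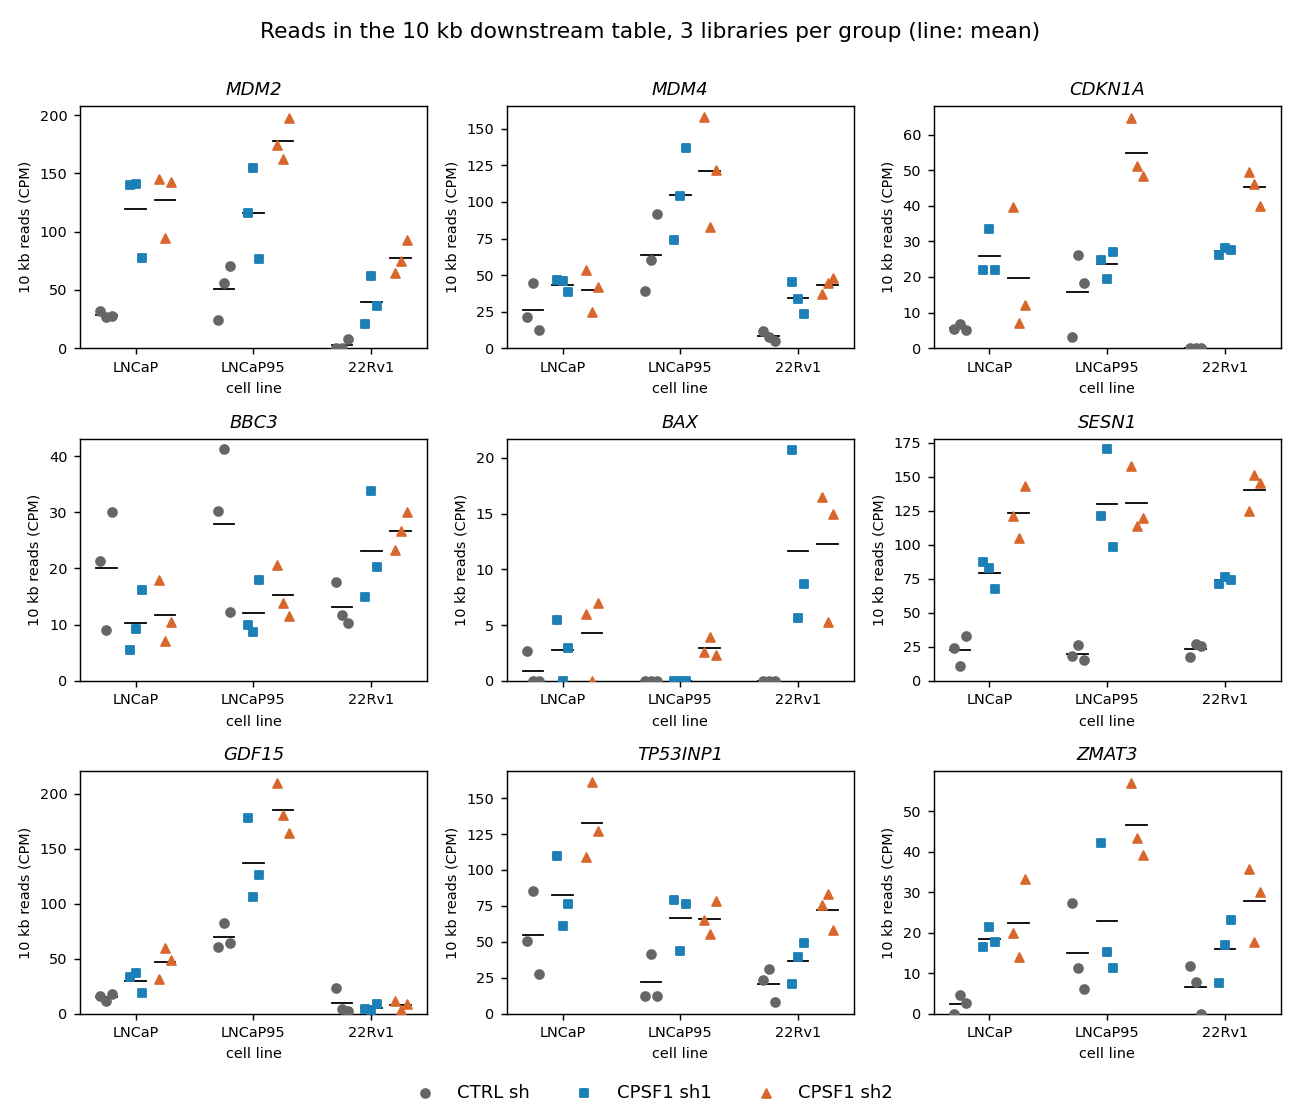
CPM in the 10 kb beyond the gene end for the 9 genes, 1 panel per gene, with 1 point per library in 3 groups per line and bars at the group means. CDKN1A and BAX are at 0 in all 3 22Rv1 controls, and SESN1 lies between 11.2 and 32.6 CPM in all controls and between 67.3 and 170 CPM in all knockdown libraries.

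CDKN1A had 0, 0 and 0 reads beyond its end in 22Rv1 controls, 14, 10 and 19 with CPSF1 sh1 and 36, 26 and 24 with CPSF1 sh2. Against a floor of 3 reads in each control library, 12.3 CPM, the mean of 36.3 CPM after knockdown was at least 2.94-fold higher. CDKN1A passed the filter there through the knockdown libraries alone, so nothing is read from its call. In LNCaP it had 2, 3 and 2 reads in the controls and 2 to 20 after knockdown, and the change did not pass (1.69 ± 0.69 SE, adjusted p = 0.084), nor did that in LNCaP95 (0.98 ± 0.56 SE, adjusted p = 0.19). The difference of 22Rv1 from the pair passed for CDKN1A in the 10 kb table, as 1 of 9 genes against 2.86% of all genes (adjusted p = 0.042), with a fitted value that rests on the zero counts. It did not pass in DESeq2, with a replicate block or with library sizes summed over the 4 tables. The 10 kb region of CDKN1A spans 36655416 to 36665415 on chromosome 6.

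MDM4 was called beyond its end in 22Rv1, with 2, 2 and 2 reads in the controls and 12 to 29 after knockdown (2.05 ± 0.60 SE, adjusted p = 0.015), a call lost without CTRL sh replicate 2 (2.09, adjusted p = 0.053) or 3 (1.77, adjusted p = 0.13). BAX was called in 22Rv1 from 0 reads in the controls and 2 to 12 after knockdown. The BAX mean of 12 CPM was under the floor of 12.3 CPM, so no fold is given, the call was lost without any of the 3 controls, and its 10 kb region holds FTL and a long non-coding RNA on the same strand. GDF15 was called in LNCaP95 (0.87 ± 0.32 SE, adjusted p = 0.029), with 20, 22 and 21 reads in the controls and 49 to 92 after knockdown, but the call was lost without CTRL sh replicate 1 (0.80) or 3 (0.83), CPSF1 sh1 replicate 1 (0.83), or CPSF1 sh2 replicate 1 (0.81) or 2 (0.84). ZMAT3 in LNCaP had 0, 2 and 1 reads in the controls and 4 to 19 after knockdown. The pooled ratio was 8.62 with an exact interval of 2.81 to 43.0 (edgeR adjusted p = 0.014), and the call was lost without CTRL sh replicate 1 (adjusted p = 0.095) or 3 (adjusted p = 0.055). A newer annotation of the same build extends ZMAT3 to position 178677909, past its whole 10 kb region. These ZMAT3 reads may therefore come from within the gene. TP53INP1 in LNCaP95 had 4, 11 and 4 reads in the controls and 20 to 34 after knockdown (1.30 ± 0.46 SE, adjusted p = 0.025), lost without CTRL sh replicate 1 (1.03, adjusted p = 0.13) or 3 (1.03, adjusted p = 0.13). BBC3 was not called beyond its end in any line.

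The ratio of 10 kb reads to 3′ UTR reads of the same gene was tested beside the levels. The ratio rose for GDF15 (2.07 ± 0.43 SE, adjusted p = 0.0014) and ZMAT3 (2.6 ± 0.84 SE, adjusted p = 0.043) in LNCaP, 2 of 9 genes. Of all genes 10.3% were called there in either direction, and 787 of 9375 were higher. In LNCaP95 the ratio rose for GDF15 (3.27 ± 0.36 SE, adjusted p = 3.3e-08) and SESN1 (1.97 ± 0.50 SE, adjusted p = 0.0032), 2 of 8. Of all genes 28.0% were called there in either direction, and 2144 of 10110 were higher. In 22Rv1 the ratio rose for MDM2 (3.26 ± 0.70 SE, adjusted p = 0.0028) and MDM4 (1.90 ± 0.54 SE, adjusted p = 0.028). CDKN1A was also called, making 3 of 9, where 7.45% of all genes were called in either direction and 671 of 10088 were higher. It had no control reads beyond its end, so nothing is read from its call. The ZMAT3 ratio was called in 2 of 9 fits that left out 1 library, those without CPSF1 sh1 replicate 3 (2.64) and CPSF1 sh2 replicate 2 (2.70). The limit from the newer annotation holds for the ratios of ZMAT3 and SESN1 as well. The MDM2 ratio in 22Rv1 rested on 0, 0 and 3 control reads beyond the end. It was called in all 9 fits that left out 1 library, at values from 2.70 to 9.56. The MDM2 ratio was not called in LNCaP (0.78, adjusted p = 0.19) or LNCaP95 (0.77, adjusted p = 0.14). The MDM4 ratio was lost without CTRL sh replicate 1 (1.90), 2 (2.04) or 3 (1.72) or CPSF1 sh2 replicate 3 (1.86), and that of CDKN1A without CTRL sh replicate 3 (adjusted p = 0.12). For GDF15 in both lines the 3′ UTR reads fell while the few reads beyond the end did not, and these reads made up 0.0814% ± 0.0283 of the gene in LNCaP controls and 0.485% ± 0.215 after knockdown, and 0.0436% ± 0.00857 and 0.920% ± 0.509 in LNCaP95 (SD, n = 3 and n = 6). For CDKN1A in LNCaP, where the 3′ UTR rose most, the ratio did not change detectably (-0.30 ± 0.74 SE, adjusted p = 0.85).

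**Figure D5:**
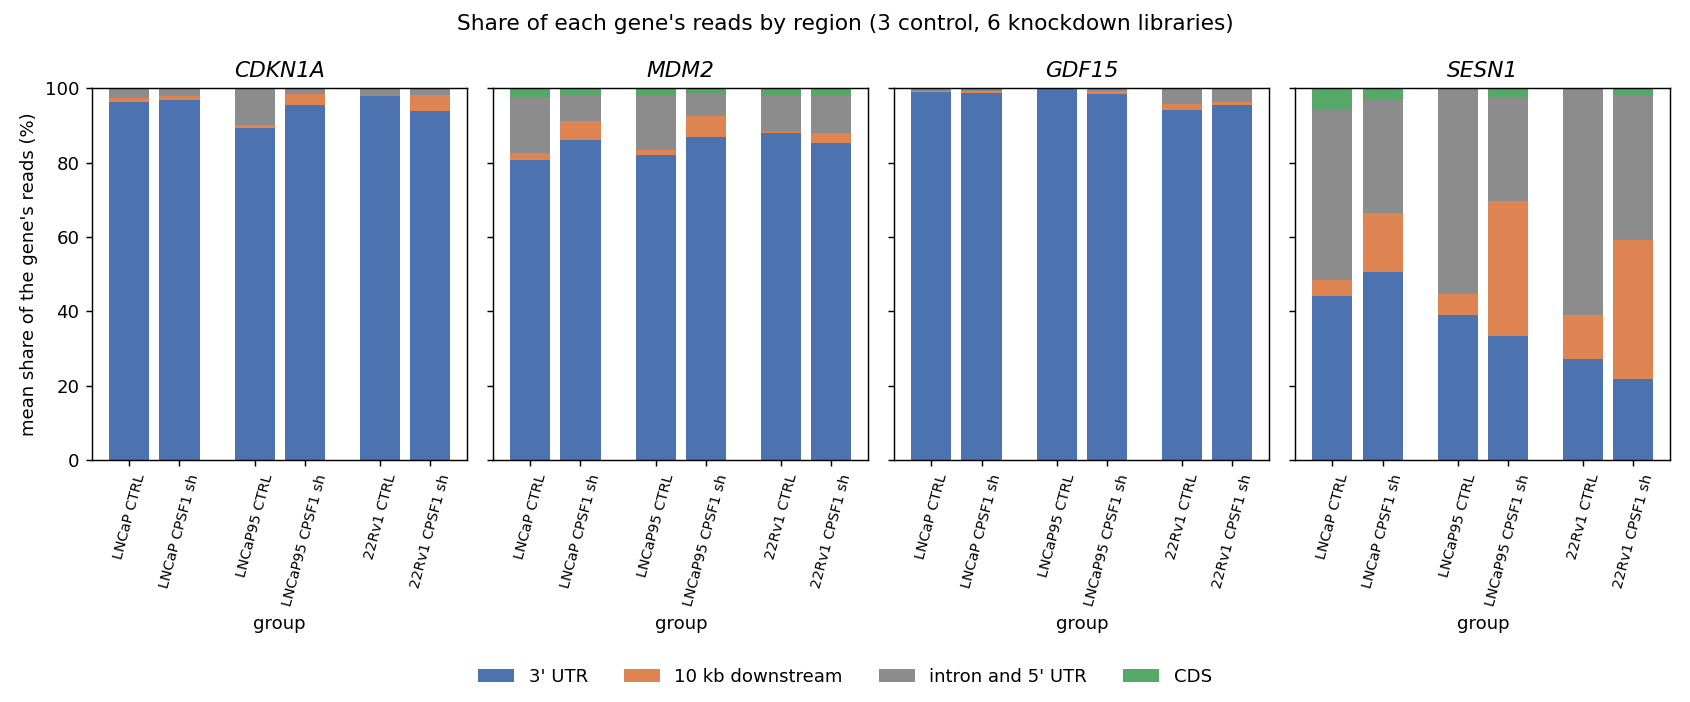
Mean share of the reads of CDKN1A, MDM2, GDF15 and SESN1 that fell in the 3′ UTR, the introns, the CDS and the 10 kb beyond the gene, as a percentage of all reads of the gene, for 3 control and 6 knockdown libraries of each line. The 10 kb share of SESN1 goes from 5.70% to 36.3% in LNCaP95, and the intron share of CDKN1A from 9.72% to 1.63%.

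The intron table holds reads that ended in the gene outside its CDS and 3′ UTR, 5′ UTR exons included. In LNCaP 14.3% of all genes were called in either direction, and 1033 of 11876 were higher. There 2 of 9 genes were called, CDKN1A (1.92 ± 0.53 SE, adjusted p = 0.013) and BAX (1.01 ± 0.30 SE, adjusted p = 0.022), both higher. The first was lost without CTRL sh replicate 2 (1.53, adjusted p = 0.11) and BAX without CTRL sh replicate 1 (0.96, adjusted p = 0.084) or 3 (0.83, adjusted p = 0.13). In LNCaP95 23.8% of all genes were called in either direction, and 1354 of 12495 were lower. There 3 of 9 genes were called, all lower: CDKN1A (-2.34 ± 0.33 SE, adjusted p = 6.2e-06), MDM2 (-0.94 ± 0.19 SE, adjusted p = 0.00046) and GDF15 (-0.99 ± 0.24 SE, adjusted p = 0.0026). In 22Rv1 edgeR called 0 of 9 against 4.37%, and DESeq2 called 0 of 9. At an unadjusted p under 0.05 were 0 of 9, beside 2140 of 12319 genes. No gene differed between 22Rv1 and the pair in the intron table, against 6.22% of all genes, and DESeq2 gave 0 of 9. At an unadjusted p under 0.05 in that comparison were 4 of 9, beside 2540 of 12468 genes.

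The ratio of intron reads to 3′ UTR reads fell for MDM2 in LNCaP (-0.84 ± 0.22 SE, adjusted p = 0.029), 1 of 9 genes. This ratio was called in either direction for 3.69% of all genes there, and was lower for 113 of 8729. In LNCaP95 it fell for CDKN1A (-2.74 ± 0.31 SE, adjusted p = 2.2e-06), MDM2 (-1.38 ± 0.26 SE, adjusted p = 0.00076) and BAX (-1.12 ± 0.32 SE, adjusted p = 0.024) and rose for GDF15 (1.39 ± 0.32 SE, adjusted p = 0.0056), 4 of 9 against 14.1%. In 22Rv1 no gene was called by edgeR against 0.422%, with 0 of 9 at an unadjusted p under 0.05, beside 932 of 9251 genes. The intron share of CDKN1A in LNCaP95 was 9.72% ± 1.77 in the controls and 1.63% ± 0.757 after knockdown, whereas in LNCaP it was 2.64% ± 1.21 and 2.05% ± 1.36 (SD, n = 3 and n = 6). That of MDM2 went from 15% ± 2.97 to 7.14% ± 1.62 in LNCaP and from 14.4% ± 2.87 to 6.26% ± 2.78 in LNCaP95, and in 22Rv1 it was 9.89% ± 3.41 and 9.95% ± 3.76.

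Few reads of the 9 genes ended in coding exons. MDM2, MDM4 and SESN1 reached 2 CPM in LNCaP and LNCaP95, and MDM2 and MDM4 in 22Rv1. None of 3 was called in LNCaP against 7.10% of all genes and none of 2 in 22Rv1 against 1.01%. At an unadjusted p under 0.05 were 0 of 3 and 1 of 2, beside 907 of 4900 and 539 of 4940 genes. In LNCaP95 12.5% of all genes were called. There SESN1 had 0 reads in the controls and a mean of 3.13 CPM after knockdown, at least 1.28-fold above a floor of 3 reads per library, and since it passed the filter through the knockdown libraries alone nothing is read from its call. MDM2 and MDM4 were not called there.

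The wider pathway was described from a list of 46 other p53 targets and one of 15 regulators of p53. In LNCaP 9 of 38 other targets tested rose in the 3′ UTR and 1 of 38 fell, with a median log2 change of 0.18 beside 0.02 for all genes. The 3 called with the largest changes were SPATA18, which acts in mitochondrial quality control (1.46 ± 0.32 SE), the quinone oxidoreductase TP53I3 (1.05 ± 0.21 SE) and the helicase ASCC3 (0.97 ± 0.15 SE). In LNCaP95 4 of 39 rose and 9 of 39 fell, with a median of 0.05. SPATA18 rose there too (1.90 ± 0.27 SE), as did the metalloreductase STEAP3 (1.12 ± 0.26 SE), and GADD45A, a growth arrest and DNA damage gene, fell (-1.15 ± 0.14 SE). In 22Rv1 2 of 41 rose, PHLDA3, an inhibitor of AKT (1.32 ± 0.20 SE), and NINJ1, a membrane-rupture protein (0.58 ± 0.13 SE), and CCNG1, cyclin G1, fell (-0.57 ± 0.13 SE), with a median of 0.21. These shares stand beside the same background as the 9 genes in each line. Beyond the gene end, 15 of 37 other targets tested were higher in LNCaP against 9.52% of all genes, 9 of 38 in LNCaP95 against 17.6% and 9 of 38 in 22Rv1 against 7.26%. Lower were 1 of 37 against 5.20%, 3 of 38 against 10.1% and 2 of 38 against 2.73%.

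Of the regulators, 0 of 14 tested rose in LNCaP against 8.24% of all genes, and 1 of 14 fell against 10.1%, the ribosomal protein RPL11 that binds MDM2 (-0.34 ± 0.11 SE). In LNCaP95 4 of 14 rose and 1 of 14 fell, each against 15.2%. CDKN2A, whose products include the MDM2 inhibitor ARF, rose by 1.37 ± 0.26 and the damage kinase ATR by 1.07 ± 0.34 on the log2 scale (adjusted p = 0.00064 and 0.023). Counts over a 3′ UTR do not tell which CDKN2A transcript rose. In 22Rv1 none of 14 regulators was called by edgeR, against 0.678% of all genes higher and 0.791% lower. At an unadjusted p under 0.05 was 1 of 14, beside 1637 of 11501 genes.

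Across the 27 libraries, after removal of each line's mean, the genes whose log2 CPM in the 3′ UTR most resembled CDKN1A were HIST2H2AA3 (r = 0.898), RCC1 (r = 0.893) and MAF (r = 0.879), and those most like MDM2 were TMA7 (r = 0.926), PSMA7 (r = 0.912) and RHOU (r = 0.907), among 8804 genes. These correlations are descriptions over libraries that share line and hairpin, and no other target of p53 was among them.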

How the data were processed

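PAC-seq libraries of poly(A)-terminated transcripts were analysed from 9 groups of 3 libraries, described by the study as biological replicates. Values were counts as the authors deposited them, raw and per gene, in a table each for 3′ UTR, intron, CDS and 10 kb downstream, made with DPAC, HISAT2 2.1.0 on hg19 and featureCounts of Subread 2.0.3 (versions per the labels) by the 3′-most base of each read on the strand of the gene, with protein-coding genes of Ensembl GRCh37. Reads primed within A-rich sequence can be among them, and the position of a read within a region is not in the tables.

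Each table was fitted per line with the quasi-likelihood test of edgeR 4.0.16 (R 4.3.3), with TMM factors and Benjamini-Hochberg adjustment over all genes tested, which were those averaging more than 2 CPM. Standard errors were taken as the absolute log2 fold change divided by the square root of F. Ratios were fitted with terms for library, region and their change with knockdown, and differences between lines with line-by-knockdown terms. DESeq2 1.42.0 was an alternative. Models were tested on simulated counts. The likeness of genes used a prior count of 2 and a mean above 10 CPM. The text names all 9 genes, the gene targeted, up to 3 called genes with the largest change from each list and line, and the 3 most alike to CDKN1A and to MDM2. A further gene set by this rule is not reported here. Sequences and neighbouring genes were read from hg19 and a newer annotation of it.

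The 9 genes, the lists and the tests were chosen with earlier results of these data known. Floors are 3 reads in each library, and floors and intervals cover counting error only. Replicate libraries differed by more than sampling noise, so none was counted as a duplicate. Values compare levels only within a gene.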

Additional observations from a re-analysis of the deposited data

Results flagged for a closer look

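The change after knockdown differed between lines, by the test of the difference itself, in 9 results. These were taken from 22Rv1 against the pair in the 3′ UTR, the 10 kb, the introns and all reads. For LNCaP95 against LNCaP they were taken from the 3′ UTR alone. Outside these 9, the LNCaP95 change was also lower than that of LNCaP for 4 of 9 genes over all reads and 3 of 9 in the introns. Between 22Rv1 and the LNCaP pair, the log2 change differed by 2.73 for GDF15 in the 3′ UTR and 2.63 over all reads. For MDM4 it differed by 0.63 in the 3′ UTR and 0.54 over all reads. For BBC3 it differed by 0.78 in the 3′ UTR, where the changes were 0.16 in 22Rv1, -0.13 in LNCaP and -1.08 in LNCaP95. The BBC3 difference was not called with a replicate block (0.77, adjusted p = 0.082) or with library sizes summed over the 4 tables (0.73, adjusted p = 0.085). For CDKN1A in the 10 kb table the fitted 5.44 rests on 22Rv1 controls with 0 reads. It did not pass in DESeq2, with a replicate block or with summed library sizes. Between LNCaP95 and LNCaP, the change in the 3′ UTR differed by -1.60 for CDKN1A, by -1.35 for GDF15 and by -0.93 for BBC3.

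For GDF15 the estimates were of opposite sign, with all 6 knockdown libraries below the controls in LNCaP and in LNCaP95 and an estimate above 0 that did not pass in 22Rv1. The 22Rv1 controls had 31.5 to 60.8 CPM of this gene in the 3′ UTR, far below those of the other lines.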

How the results depend on the processing

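The alternatives refitted the changes within each line, the 10 kb ratio and the difference of 22Rv1 from the pair. Coding exons, the intron ratio, single hairpins, control levels and the difference of LNCaP95 from LNCaP were not refitted. No called value that was refitted changed sign. DESeq2 and the replicate block left out the 10 kb ratio, and the difference of 22Rv1 from the pair was taken for single genes from the 3′ UTR table alone. Of 44 called values of single genes, DESeq2 kept 43 and the replicate block kept 43, losing the BBC3 difference (0.77, adjusted p = 0.082). Of 513 called values in fits that left out 1 library, 451 remained called, with 24 of the other values gained. The number of the 9 genes called moved as follows. With library sizes summed over the 4 tables, which moved the median of all genes in the 10 kb table to 0.62, 1.11 and 0.73 in LNCaP, LNCaP95 and 22Rv1, the 10 kb count went from 3 to 6 in LNCaP and from 4 to 7 in LNCaP95, while the genes called higher among all tested went from 1280 to 2325 and from 2600 to 5264. The ratio count went from 2 to 5, 2 to 7 and 3 to 7, beside 787 to 1445, 2144 to 4728 and 671 to 2549 of all genes, and the difference between 22Rv1 and the pair from 1 to 0 in the 10 kb table and from 0 to 1 in the intron table. Under that scaling 36 of 39 called values of single genes were kept, 3 were lost and 21 others were gained. Among those lost were MDM2 in the 3′ UTR of LNCaP95 (0.35, adjusted p = 0.084) and the BBC3 difference (0.73, adjusted p = 0.085). With genes above 2 CPM in every library, the intron count in LNCaP went from 2 to 1, the ratio count in LNCaP from 2 to 1 and in 22Rv1 from 3 to 1, and the 10 kb count in 22Rv1 from 5 to 2. These counts fell because genes were no longer tested: of 43 called values still tested under that filter, 43 were kept. DESeq2 moved the count over all reads in 22Rv1 from 1 to 2 and the 10 kb difference from 1 to 0. The replicate block also took the 10 kb difference count from 1 to 0. The replicate numbers did not pair the libraries of a line as a whole: 10 of 27 pairs of same-numbered libraries had a correlation above 0.1 (range -0.287 to 0.493). The exception was CTRL sh with CPSF1 sh1 in 22Rv1, where all 3 pairs were above it (0.493, 0.317 and 0.177), while CTRL sh with CPSF1 sh2 gave -0.216, -0.183 and 0.00519. The block was fitted over both hairpins, and no call within 22Rv1 changed under it.

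Leaving out 1 library gave 5 to 7, 3 to 6 and 1 to 3 genes called in the 3′ UTR of LNCaP, LNCaP95 and 22Rv1, 2 to 4, 1 to 4 and 3 to 6 in the 10 kb table, 1 to 2, 3 to 4 and 0 to 1 in the introns, 7 to 8, 3 to 5 and 1 to 3 over all reads, and 1 to 2, 2 to 3 and 1 to 4 for the 10 kb ratio. For the difference of 22Rv1 from the pair it gave 1 to 3, 0 to 1, 0 to 1 and 1 to 3 in the 3′ UTR, the 10 kb, the introns and all reads. The cause of these moves was not tested. Many 10 kb values of these genes rest on few control reads.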
